A study of Mus musculus with 6 samples.

Results

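The forkhead genes considered here are Foxc1, Foxc2, Foxd1, Foxd2, Foxf1, Foxf2, Foxl1, Foxp1 and Foxp2, a set of 9 chosen by symbol from 44 forkhead genes and 21827 genes listed in all. They were measured by RNA sequencing in 6 mouse embryos at E10.75, each giving 1 library of its distal mandible, the front of the forming lower jaw, dissected where the reporter was green. The libraries come from 3 litters, with 1 embryo labelled mutant (Msx1f/f;Msx2f/f;Rosa26mTmG/+;Hand2-Cre) and 1 labelled control (Msx1f/+;Msx2f/f;Rosa26mTmG/+;Hand2-Cre) in each. Both labels thus carry Hand2-Cre, the Rosa26 mTmG reporter and 2 floxed copies of Msx2, and no group has intact Msx genes. The Cre acts only where the Hand2 regulatory sequence was active, so other cells of the dissected tissue keep their alleles. Levels are in TPM, a share of all transcripts that is scaled for transcript length, so that the levels of different genes can be set side by side.

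Forkhead proteins are transcription factors that share a winged-helix DNA-binding domain, the forkhead box. In the facial mesenchyme that neural crest cells form, Foxd1, Foxd2, Foxf1, Foxf2 and Foxl1 are known to respond to hedgehog signals from the epithelium, and Foxc1 and Foxc2 act in skull, jaw and vessel development. Foxp1 and Foxp2 belong to a subfamily of repressors that bind DNA as dimers.

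Msx1, the gene that distinguishes the labels, went against them in 4 of the 6 libraries. Msx1 stood at 1.90 TPM under the mutant label in litter 1, and at 84.1 TPM in the littermate labelled control. In litters 2 and 3 the order was opposite, with 2.61 and 1.99 TPM under the control label and 78.8 and 73.3 TPM under the mutant label. Each litter therefore has a library under 10 TPM and a library over 50 TPM of Msx1, called here the Msx1-lower and the Msx1-higher library. The Msx1-lower libraries are those labelled mutant of litter 1, control of litter 2 and control of litter 3. This order is a measured one and not a genotype, so values arranged by it are described without a test, and the test of the labels is given separately.

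The tissue carried the markers of arch mesenchyme. The 12 genes of that list summed to between 1081 and 1195 TPM. They ranged from Dlx1, at 2.63 to 7.64 TPM, to Hand2 and Dlx5, at 210.0 to 261 and 204 to 266 TPM, with Prrx1 at 139.5 to 154.5 TPM. Markers of other cell types were present as well, with 12 epithelial genes at 155 to 182 TPM, 10 endothelial genes at 103 to 122 TPM and 11 red blood cell genes at 6843 to 22458 TPM, the highest in the library labelled mutant of litter 1. Skeletal muscle progenitor, neuron, glia and macrophage lists each summed to at most 18.9 TPM, and Prph of the neuron list was at 0 in all 6 libraries. In such bulk tissue, fewer cells of a type and less RNA per cell cannot be told apart.

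All 9 genes were detected in every library, over a wide range of levels. Foxp1 was the highest, with a mean of 83.3 TPM (lowest 69.6, median 80.8, highest 110 TPM over the 6 libraries). Foxp2 followed at a mean of 54.3 TPM (47.7, 52.9 and 66.0 TPM) and Foxf1 at 27.9 TPM (24.9, 27.9 and 30.7 TPM). The ranges of these top 3 did not overlap each other or that of Foxd2, at a mean of 13.99 TPM (12.3, 13.9 and 15.8 TPM).

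Below Foxd2 the order was less certain. Foxf2, Foxd1 and Foxc2 had means of 10.1, 8.68 and 8.65 TPM and overlapping ranges, and exchanged the places from 5 to 7 between libraries. Foxf2 also overlapped Foxd2 over the 6 libraries, although Foxd2 kept place 4 within every library. Foxc1, with a mean of 4.93 TPM, and Foxl1, a gene best known from gut mesenchyme, with a mean of 2.04 TPM, were in the last 2 places in every library. Over the 6 libraries the range of Foxc1 (4.06 to 6.80 TPM) overlapped those of Foxd1 and Foxf2 but not that of Foxc2, and the range of Foxl1 overlapped none of the set.

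Among all 44 forkhead genes, 18 had a mean of at least 5 TPM, and 7 of these were arch mesenchyme genes of the set. Foxp1 was the first of the family in each library. The others of the 18 were Foxm1 (53.0 TPM), a regulator of cell division, Foxn3, Foxj3, Foxp4, Foxk2, Foxo3, Foxk1, Foxn2, Foxo4, Foxo1 and Foxj2 (7.49 TPM). Foxp2 stood second in the family by its mean, but its range overlapped that of Foxm1 and its place varied from 2 to 4 between libraries. Foxf1 was eighth, and the range of its level overlapped those of Foxo3 and Foxk1. Of the 35 other family members, 24 had a mean below 5 TPM and 2 of these, Foxd4 and Foxi1 (named after their values were seen), were listed at 0 in every library.

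**Figure D1:**
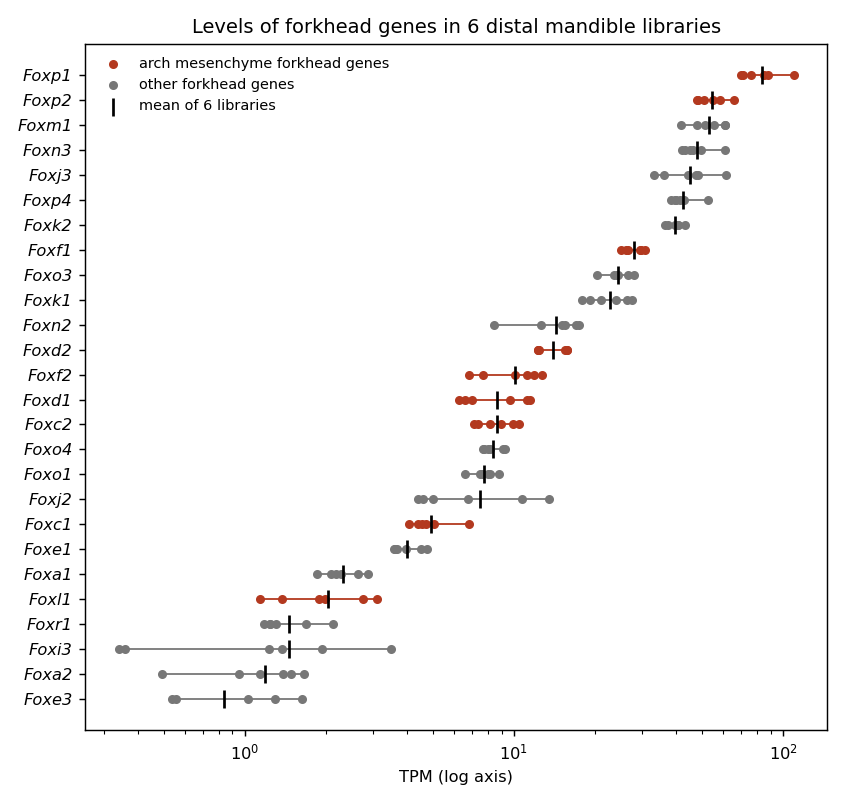
TPM of the 26 forkhead genes that passed the filter on low values (1 TPM in 3 or more libraries), on a log axis, with 1 point per library, a bar from the lowest to the highest and a tick at the mean; the single value of 0, for Foxe3, is not drawn. Foxp1 is highest at a mean of 83.3 TPM, and the set runs down to Foxl1 at 2.04 TPM, interleaved with other forkhead genes.

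Several of the genes lie beside each other in the genome. On chromosome 8 (GRCm38), Foxf1 (chr8:121084386-121088144), Foxc2 (chr8:121116171-121118895) and Foxl1 (chr8:121127940-121130644) share a strand, with 28.0 kb between Foxf1 and Foxc2 and 9.04 kb between Foxc2 and Foxl1. Their mean levels were 27.9, 8.65 and 2.04 TPM in that order. The annotated gene Gm20388 spans all 3 and shares 0 exon bases with them. On chromosome 13, Foxf2 (chr13:31625816-31631403) ends 175 kb from Foxc1 (chr13:31806633-31812476) and lies 64.8 kb from Foxq1, which did not pass the filter on low values and was at 0.197 TPM on average. Foxd2 (chr4:114906282-114908873) lies 16.3 kb from Foxe3, at a mean of 0.840 TPM. Foxd1 (chr13:98354242-98359305), Foxp1 (chr6:98925338-99522721) and Foxp2 (chr6:14901349-15441977) have no forkhead gene within 100 kb. The Foxp genes have 31 and 20 annotated transcripts, and the other 7 genes have 1 each, with 1 or 2 exons.

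The paralogues share stretches of coding sequence, which matters for how reads are assigned to them. The longest identical run between the coding sequences of a pair was 53 bases for Foxc1 and Foxc2, 47 bases for Foxd1 and Foxd2 and 41 bases for Foxf1 and Foxf2. Foxp1 and Foxp2 shared a run of 35 bases, which is not printed. The runs of the Foxc, Foxd and Foxf pairs are shown because reads confined to such a run could come from either gene. Capitals mark the identical run, and 15 bases on each side, in lower case, hold the first differences (GRCm38, each read along its gene, from the transcripts of GENCODE M21).
Foxc1 (chr13:31807631-31807713): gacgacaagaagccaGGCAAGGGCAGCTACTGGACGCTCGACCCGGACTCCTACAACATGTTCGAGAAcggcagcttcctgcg
Foxc2 (chr8:121117017-121117099): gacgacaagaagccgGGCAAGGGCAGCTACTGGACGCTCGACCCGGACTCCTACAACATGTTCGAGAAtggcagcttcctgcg
Foxd1 (chr13:98355016-98355092): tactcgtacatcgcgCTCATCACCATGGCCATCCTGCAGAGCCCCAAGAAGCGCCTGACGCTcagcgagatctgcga
Foxd2 (chr4:114908352-114908428): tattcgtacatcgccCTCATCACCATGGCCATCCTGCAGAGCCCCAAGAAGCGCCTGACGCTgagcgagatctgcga
Foxf1 (chr8:121084642-121084712): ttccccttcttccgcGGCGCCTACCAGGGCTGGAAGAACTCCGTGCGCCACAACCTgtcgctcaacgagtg
Foxf2 (chr13:31626479-31626549): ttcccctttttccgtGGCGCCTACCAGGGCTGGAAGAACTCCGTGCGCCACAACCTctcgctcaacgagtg
The printed runs are short beside coding lengths of 1134 bases (Foxf1) to 1659 bases (Foxc1). Only the longest identical run was measured, and the printed flanks are also nearly identical, so the similar stretches are longer than the runs. The read length is not given in the sources used here, and the share of reads split between paralogues is unknown.

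Within litters, 4 of the 9 genes kept 1 direction between the Msx1-lower and the Msx1-higher library. Foxd1 and Foxp2 were higher in the Msx1-lower library of all 3 litters, and Foxd2 and Foxf2 were lower in it. Among the 12152 genes tested, 22.7% had 1 direction in all 3 litters. For the same 4 genes the 3 Msx1-lower libraries did not overlap the 3 Msx1-higher ones, which held for 9.32% of genes tested. The Msx1-lower libraries were all above for Foxd1 and Foxp2 (4.36% of genes tested) and all below for Foxd2 and Foxf2 (4.95%). Of the 11 other forkhead genes with a mean of at least 5 TPM, 3 did not overlap. The set is small and was chosen with earlier results known, so its share is a description.

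Foxd1, known from the stroma of the kidney and from facial mesenchyme, was at 11.2, 11.5 and 9.66 TPM in the Msx1-lower libraries of litters 1, 2 and 3. It was at 6.56, 6.24 and 6.99 TPM in the Msx1-higher libraries. Every Msx1-lower library was thus above every Msx1-higher one, with the narrowest gap in litter 3. The within-litter ratio of the lower to the higher library was 1.71, 1.84 and 1.38. Between litters, the Msx1-lower libraries differed 1.19-fold and the Msx1-higher ones 1.12-fold, less than the 2 libraries of any litter.

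Foxd2, its paralogue, was at 12.4, 12.3 and 12.3 TPM in the Msx1-lower libraries of litters 1, 2 and 3. The Msx1-higher libraries had 15.8, 15.5 and 15.7 TPM. The libraries formed a low and a high trio, and the Msx1-higher library exceeded its littermate 1.28-fold, 1.26-fold and 1.27-fold. Spread within each trio was 1.004-fold and 1.02-fold in TPM as listed. After median-of-ratios scaling the litters were less even, at -0.23, -0.32 and -0.42 on the log2 scale (Msx1-lower minus Msx1-higher). Foxd1 and Foxd2 therefore differed in opposite directions in each litter, including litter 1, where Msx1 and the label point the same way. The part of read assignment between these paralogues in their differences was not tested.

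Foxf2, a gene of palate and jaw mesenchyme, was at 7.65, 6.79 and 10.1 TPM in the Msx1-lower libraries. It was at 11.9, 12.7 and 11.2 TPM in the Msx1-higher libraries. The groups did not overlap, but in litter 3 the libraries were close. The Msx1-higher library exceeded the other 1.55-fold, 1.87-fold and 1.11-fold.

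Foxp2, which carries the forkhead box together with a zinc finger and a leucine zipper, was at 54.9, 58.2 and 66.0 TPM in the Msx1-lower libraries. The Msx1-higher libraries had 50.9, 47.7 and 48.1 TPM. Again there was no overlap, though litter 1 differed by little. The ratio of the lower to the higher library was 1.08, 1.22 and 1.37.

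The other 5 genes had mixed directions. Foxp1 was at 85.3, 76.3 and 110 TPM in the Msx1-lower libraries and at 88.1, 69.6 and 70.9 TPM in their littermates. Only litter 3 showed a wide gap, and litter 1 went the other way by a small amount, a sign that turned with a change of scaling. Foxf1, the most even gene of the set over the 6 libraries, had 29.6, 24.9 and 30.7 TPM against 26.5, 26.03 and 29.4 TPM, and its sign in litter 3 turned with scaling (-0.04 on the log2 scale after median-of-ratios scaling).

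Foxc1 was at 5.04, 4.06 and 6.80 TPM in the Msx1-lower libraries and at 4.42, 4.73 and 4.55 TPM in the Msx1-higher ones. Foxc2 was at 7.13, 8.16 and 10.4 TPM against 8.97, 9.90 and 7.34 TPM. Both Foxc genes were highest in the library labelled control of litter 3, which was also the highest for Foxp1, Foxp2 and Foxf1. Foxl1 was at 1.14, 3.10 and 2.75 TPM against 1.37, 1.89 and 1.98 TPM, with the lowest level in both libraries of litter 1. Neighbours on chromosome 8 did not share a pattern: in litter 2, Foxl1 was higher in the Msx1-lower library, where Foxf1 and Foxc2 were lower.

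**Figure D2:**
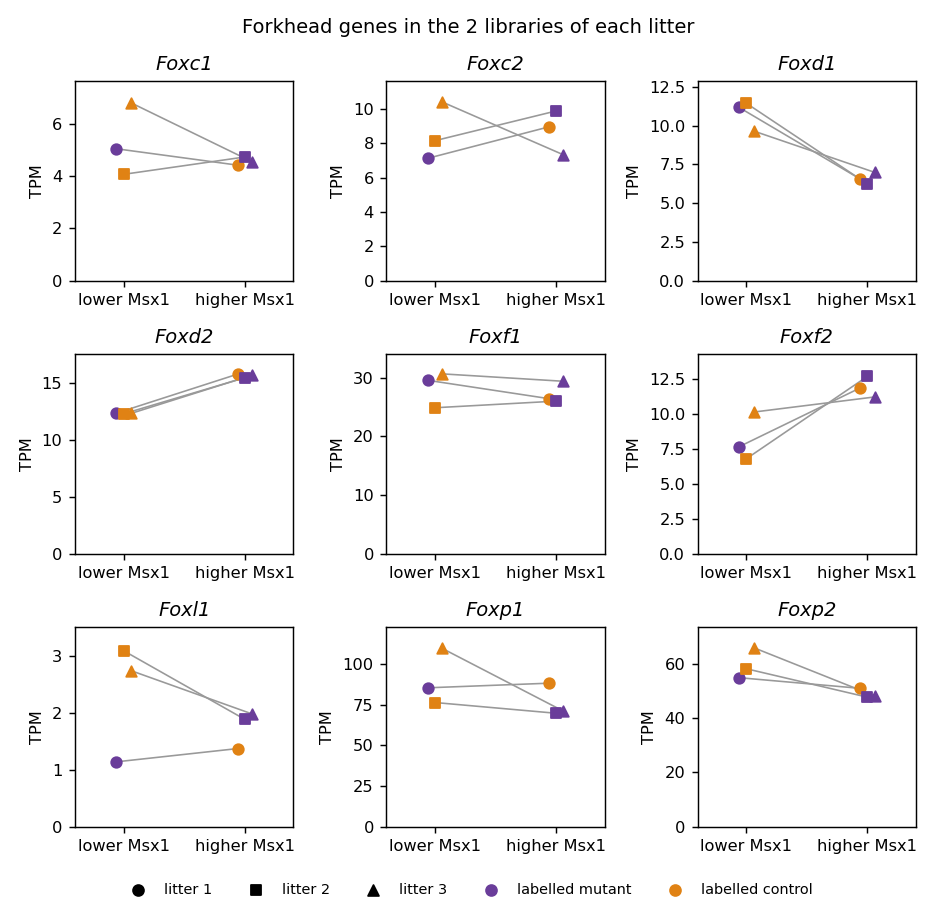
TPM of the 9 genes, 1 panel per gene from 0, in the Msx1-lower and the Msx1-higher library of each litter; lines join littermates, shapes mark litters and colours mark the deposited labels. Foxd1 and Foxp2 slope down and Foxd2 and Foxf2 slope up in all 3 litters, and the other 5 genes have lines of both slopes.

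The libraries also differed in their overall scale. The median log2 difference of all tested genes, Msx1-lower minus Msx1-higher, was -0.09 in litter 1, 0.007 in litter 2 and 0.08 in litter 3. After median-of-ratios scaling, which brings these medians to within 0.005 of 0, the log2(TPM + 1) differences were 0.79, 0.78 and 0.33 for Foxd1 and 0.21, 0.27 and 0.35 for Foxp2. They were -0.23, -0.32 and -0.42 for Foxd2 and -0.47, -0.82 and -0.22 for Foxf2. All 4 genes kept their direction in each litter, and their lack of overlap. Foxp1 gained 1 direction, at 0.06, 0.12 and 0.52.

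Cell type markers are given for the same libraries, each count beside the 22.7% of all genes tested that had 1 direction in all 3 litters. Of the 12 arch mesenchyme markers, 3 were higher and 3 lower in the Msx1-lower library of all litters. Summed, they were at 1081 to 1174 TPM in the Msx1-lower libraries and 1165 to 1195 TPM in the others. The summed red blood cell markers were at 22458, 9660 and 7497 TPM in the Msx1-lower libraries of litters 1, 2 and 3, and at 6843, 7812 and 8696 TPM in their littermates, with 3 of 11 genes higher in all litters. The summed endothelial markers were at 103 to 105 TPM in the Msx1-lower libraries and 105 to 122 TPM in the others, with 4 of 10 genes lower in all litters. Summed epithelial markers were at 155 to 177 TPM against 158 to 182 TPM, with 3 of 12 genes lower and 1 higher in all litters. The part of these cell types in the forkhead differences was not tested.

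In the authors' deposited table, which compares mutant and control without naming the direction, no gene of the set passed an adjusted p of 0.05, where 14 of 14572 genes (0.0961%) did. Msx1 was among these at -5.19 ± 0.26, so positive values go with the libraries low in Msx1. Between the labels as deposited, the log2 difference of Msx1 was 1.41 ± 1.95 (SE, mutant minus control). The Msx1 value of the authors' table thus matches a grouping by the order of Msx1 and not by the deposited labels. At an unadjusted p under 0.05 there were 2 of the 9 genes, Foxd1 and Foxp2, against 2.22% of the genes with an adjusted p. These values come from the same 6 libraries as the TPM and are no second measurement.

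In the authors' deposited table Foxd1 stood at 0.71 ± 0.22 (log2 fold change ± standard error; unadjusted p = 0.00160, adjusted p = 0.628). Its p was the smallest of the 42 forkhead genes with a value, and rank 37 of 17605 genes. Foxp2 was at 0.28 ± 0.13 in the authors' deposited table (unadjusted p = 0.0283, adjusted p = 1.000). Foxf2 and Foxd2 were at -0.56 ± 0.32 and -0.34 ± 0.29 (unadjusted p = 0.0786 and 0.233) in the authors' deposited table.

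In the authors' deposited table Foxp1 was at 0.24 ± 0.13 (unadjusted p = 0.0779), as far from 0 in standard errors as Foxf2. The other 4 genes lay within 1 standard error of 0 in the authors' deposited table, with Foxc1 at 0.19 ± 0.28, Foxl1 at 0.31 ± 0.60, Foxf1 at 0.05 ± 0.19 and Foxc2 at -0.03 ± 0.35. The signs were 6 positive and 3 negative with a median of 0.19, beside 0.003 for all genes with an adjusted p. Base means, the average normalized counts behind these values, ran from 33.9 for Foxl1 and 108 for Foxc2 to 315 for Foxd1, 1325 for Foxp2 and 1835 for Foxp1 in the authors' deposited table. The standard error was largest for Foxl1, the gene with the fewest counts.

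**Figure D3:**
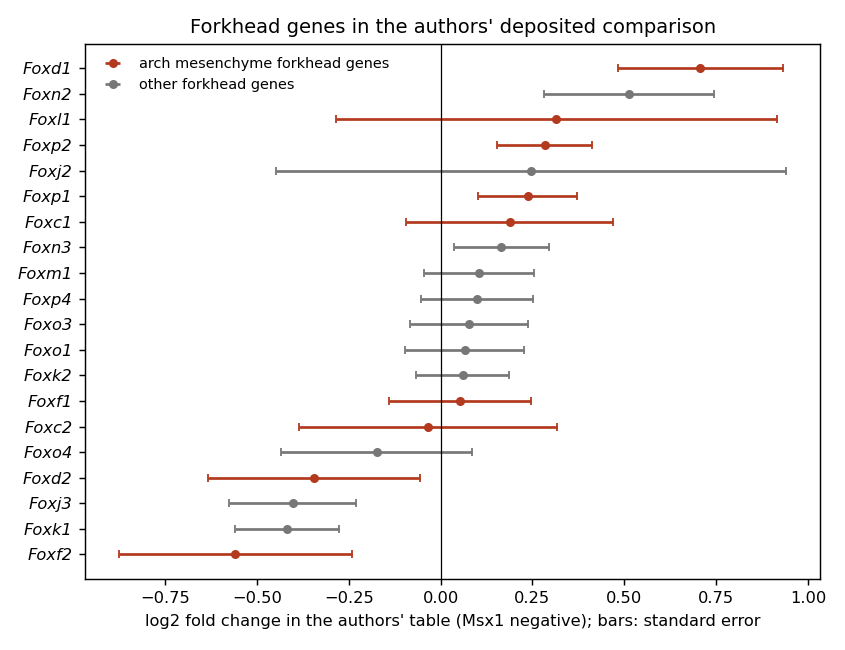
Log2 fold change of 20 forkhead genes in the authors' deposited table, with bars of 1 standard error, the arch mesenchyme genes in red and other forkhead genes with a mean of at least 5 TPM in grey; the sign is that in which Msx1 is negative. Foxd1 is the most positive at 0.71 and Foxf2 the most negative at -0.56, and none passed the table's adjusted threshold.

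Between the labels as deposited, the set did not separate. With limma on log2(TPM + 1), 0 of 9 genes passed an adjusted p of 0.05, as did 0 of all 12152 genes (0%). At an unadjusted p under 0.05 there were 0 of the 9, beside 6.72% of all genes. For none of the 9 did the 3 libraries labelled mutant and the 3 labelled control stand apart, against 13.1% of genes tested. These labels mix Msx1-lower and Msx1-higher libraries.

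Foxp1 and Foxp2 had the smallest p of the set in this comparison. Foxp1 averaged 75.3 ± 8.69 TPM (SD, n = 3) under the mutant label and 91.3 ± 16.9 TPM (SD, n = 3) under the control label. Mutant minus control was -0.27 ± 0.14 on the log2 scale (SE), with an adjusted p of 0.732 from limma. Foxp2 averaged 50.2 ± 4.03 and 58.4 ± 7.50 TPM (SD, n = 3), which gave -0.21 ± 0.11 (SE) and, with limma, an adjusted p of 0.734. Foxd1, whose libraries separate by Msx1, averaged 8.14 ± 2.67 TPM under the mutant label and 9.23 ± 2.48 TPM under the control label (SD, n = 3). The labels differed by -0.17 ± 0.25 (SE; adjusted p = 0.890 from limma), with a 95% interval of -0.74 to 0.40.

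For Foxd2 the labelled log2 difference was 0.10 ± 0.14, for Foxf2 0.13 ± 0.23, for Foxf1 0.05 ± 0.11, for Foxc1 -0.05 ± 0.19, for Foxc2 -0.17 ± 0.16 and for Foxl1 -0.33 ± 0.26 (SE). Limma gave adjusted p between 0.784 and 0.956 for these 6 genes. The widest of their 95% intervals, that of Foxl1, ran from -0.92 to 0.26. Over the set 3 differences were positive and 6 negative, with a median of -0.17 beside -0.06 for all genes tested.

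Hedgehog signalling acts upstream of several of the forkhead genes. Of 21 listed genes, 18 passed the filter on low values. None of 19 with an adjusted p passed the authors' threshold in their deposited table, and 0 of 19 had an unadjusted p under 0.05. Between the deposited labels, limma gave 0 of the 18 an adjusted p under 0.05. At an unadjusted p under 0.05 there were 4 of the 18, beside 6.72% of all genes tested. On the log2 scale Iqce (0.61 ± 0.17, SE) and Gli1 (0.49 ± 0.18) were higher under the mutant label. Smo (-0.20 ± 0.07) and Spop (-0.23 ± 0.08) were lower under it. By the order of Msx1, 6 of the 18 had 1 direction in all 3 litters, beside the 22.7% of all genes tested. Evc, which acts at the primary cilium and is a chromosomal neighbour of Msx1, was higher in the Msx1-lower libraries. Disp1, Hhat, Cdon, Gli3 and Kif7 were lower. Apart from Gli3 these 6 were named after their values were seen. The part of its position beside Msx1 in the difference of Evc was not tested.

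Shh, the ligand made by epithelium, was at 1.51, 2.44 and 2.31 TPM in the Msx1-lower libraries and 3.55, 2.07 and 1.77 TPM in their littermates. By this order the difference was wide in litter 1 alone. By the deposited labels, Shh was lower in the library labelled mutant of each litter. The labelled groups did not overlap, which held for 13.1% of genes tested. The labelled log2 difference was -0.43 ± 0.19 (SE), with an adjusted p of 0.726 from limma. Ptch1, the receptor and a target of the pathway, was at 36.3, 37.1 and 46.3 TPM against 47.9, 44.3 and 45.9 TPM. Ptch1 was lower in the Msx1-lower libraries of litters 1 and 2 and nearly equal in litter 3. Any relation of Ptch1 to the forkhead genes was not tested.

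Gli1, a transcription factor and direct target of the pathway, was at 36.5, 18.1 and 19.0 TPM in the Msx1-lower libraries and 25.8, 28.9 and 24.2 TPM in the others. By this order it was higher in litter 1 and lower in litters 2 and 3. By the deposited labels, Gli1 was higher in the library labelled mutant of each litter, though the labelled groups overlapped. The labelled log2 difference was 0.49 ± 0.18 (SE), with an adjusted p of 0.713 from limma. Gli2, an activator, was at 42.1, 42.5 and 46.9 TPM against 44.1, 45.9 and 35.2 TPM, with mixed direction. Gli3, which also acts as a repressor, was at 93.7, 97.8 and 96.8 TPM against 114, 106 and 104 TPM, lower in the Msx1-lower library in each litter without overlap. In the authors' deposited table Gli3 was at -0.17 ± 0.11, Ptch1 at -0.21 ± 0.11 and Gli1 at -0.18 ± 0.25, none past the adjusted threshold.

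**Figure D4:**
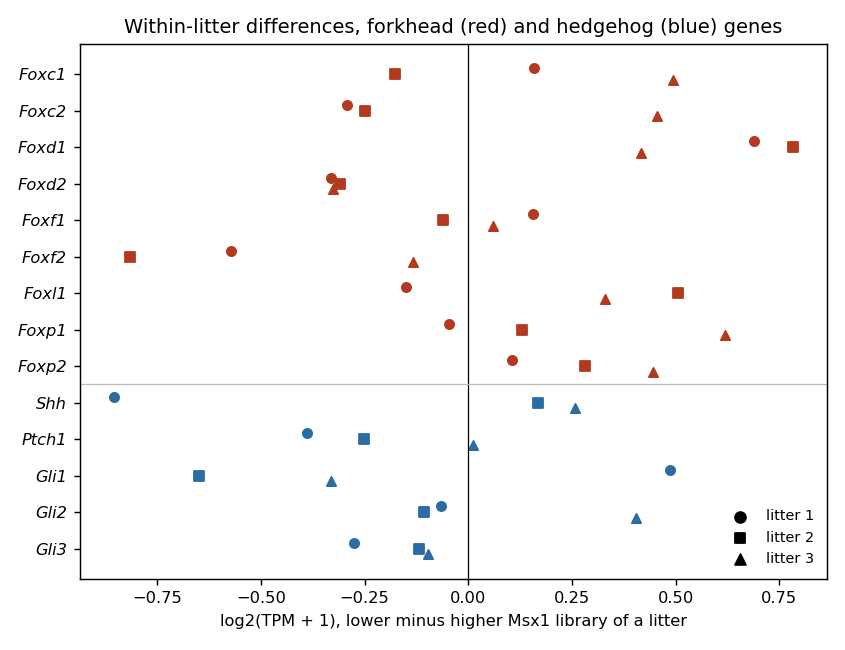
Differences in log2(TPM + 1), Msx1-lower minus Msx1-higher library, with 1 point per litter, for the 9 forkhead genes (red) and 5 hedgehog genes (blue). Foxd1 and Foxp2 lie right of 0 and Foxd2 and Foxf2 left of 0 in every litter, whereas Shh, Ptch1, Gli1 and Gli2 fall on both sides and Gli3 on the left.

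The sequences before the start sites of the genes that kept 1 direction are shown for comparison, since Foxd1 and Foxd2 are paralogues with opposite differences. RefSeq start sites (GRCm38.p6) were found for 5 of the 9 genes, namely Foxc1, Foxd1, Foxd2, Foxf2 and Foxp1. The 250 bases before the start of 3 of them are printed along the gene, with matches to GGGCGG (GC box) or CCAAT in capitals, on either strand.
Foxd1 (chr13:98353995-98354244, plus strand): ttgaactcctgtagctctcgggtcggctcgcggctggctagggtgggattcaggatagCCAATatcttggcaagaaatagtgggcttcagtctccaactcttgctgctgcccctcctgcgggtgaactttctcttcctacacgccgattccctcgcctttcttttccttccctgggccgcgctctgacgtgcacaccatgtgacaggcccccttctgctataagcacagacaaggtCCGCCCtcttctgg
Foxd2 (chr4:114908899-114909148, minus strand): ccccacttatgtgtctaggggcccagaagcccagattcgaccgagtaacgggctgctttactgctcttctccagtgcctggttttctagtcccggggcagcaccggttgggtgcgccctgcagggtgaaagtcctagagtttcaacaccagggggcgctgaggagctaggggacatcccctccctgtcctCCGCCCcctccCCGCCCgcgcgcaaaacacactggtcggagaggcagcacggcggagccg
Foxf2 (chr13:31625566-31625815, plus strand): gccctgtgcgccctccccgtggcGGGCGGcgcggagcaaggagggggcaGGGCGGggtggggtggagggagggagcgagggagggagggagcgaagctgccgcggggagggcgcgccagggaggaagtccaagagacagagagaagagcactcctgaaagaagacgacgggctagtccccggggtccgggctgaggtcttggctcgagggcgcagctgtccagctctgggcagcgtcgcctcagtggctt
The Foxd1 window held 1 GC box ending 9 bases before the start and a CCAAT box. Foxd2 and Foxf2 each held 2 GC boxes. A GC box was found in 32.7% and CCAAT in 33.9% of 32851 windows of this length over all genes. These 3 windows hold neither TAAT (54.9% of all windows), the core bound by homeodomain proteins such as Msx1, nor GACCACCCA (0.225%), the consensus of Gli proteins, nor TATAAA (12.4%). GC made up 57.2% of the Foxd1 window, 64.4% of that of Foxd2 and 71.6% of that of Foxf2, against a median of 52.4% over all windows. The shares over all windows are not matched for GC. The window of Foxc1, a gene of mixed direction, also held a GC box and a CCAAT box and no TAAT, at 70.8% GC. Foxp1, also of mixed direction, had TAAT in some of its windows.

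Over the 6 libraries, the genes most like those 7 of the set with a mean of at least 5 TPM were sought by the root mean square difference of their log2(TPM + 1), each centred on its own mean, among 8896 genes with a mean of at least 5 TPM. They are named for the 3 of these 7 with the widest log2 range, Foxf2, Foxd1 and Foxp1. Foxl1, with the highest ratio of highest to lowest library in the set (2.72), was not compared because of its low level. Yipf3, a Golgi membrane protein gene, was closest to Foxf2 at 0.07 log2 units, where the median gene was at 0.32. Cdk5rap1, a gene for a tRNA-modifying enzyme of mitochondria, was closest to Foxd1 at 0.10 (median 0.36), and Grk5, a receptor kinase gene, closest to Foxp1 at 0.04 (median 0.24). With 8896 genes over 6 libraries such close matches are a description only. Within the set Foxp1 and Foxp2 were nearest to each other, at 0.13, but 413 other genes were nearer to Foxp1 and 1011 were nearer to Foxp2.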

How the data were processed

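Polyadenylated RNA of single distal mandibles was sequenced, with 3 libraries per label in 3 litters. The authors deposited TPM per gene and library. The authors' table gives, per the file headers, a base mean (a signal, the normalized mean count), a log2 fold change with its standard error, a Wald score, and unadjusted and adjusted p-values. Salmon 1.5.2, DESeq2 and mm10 are listed in the submitters' processing notes without roles. The annotation, any filter and the direction of the table's comparison were not stated there. TPM keep no depth, so no counting interval can be had and precision rests on how embryos of a label vary. Listed TPM summed to 716208 to 735601 per library, and 11929 to 12132 genes reached 1 TPM.

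Labelled groups were compared with limma 3.58.1 in R 4.3.3 (trend, robust) on log2(TPM + 1), for the 12152 genes that reached 1 TPM in 3 or more libraries, with Benjamini-Hochberg adjustment over all of them. Fold changes on this scale understate low genes. The fit was tested on simulated data with added differences larger than any labelled difference of the set, so finding differences of that smaller size was not tested. With 3 against 3 libraries an exact two-sided permutation test cannot go below 0.1. Litters pair the libraries by the design text, although deviations of littermates from their label means correlated at -0.05 to -0.03.

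The members, lists and tests were chosen with earlier results of these data known. Named are the 9 genes, Msx1, forkhead genes with a mean of at least 5 TPM, hedgehog genes past a threshold with Shh, Ptch1, Gli1, Gli2 and Gli3, the closest gene to the 3 members of widest log2 range among the 7 that averaged 5 TPM or more, and forkhead neighbours within 100 kb. Alternatives were other pseudocounts, filters, scalings, moderation, the litter block and leaving out each library. Positions are from GENCODE M21 (GRCm38, the assembly of mm10). Exons of Foxp1 share 300 bases with those of Gm20696, and those of Foxf1 and Foxf2 98 bases each with a microRNA gene on the other strand. Whether strand was used in counting is not given in the sources used here.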

Additional observations from a re-analysis of the deposited data

How the results depend on the processing

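In the label comparison no gene passed in either direction (0 and 0) under any alternative that kept all 6 libraries. Leaving out 1 library gave 0 to 1 higher (1 on dropping the control of litter 1) and 0 to 1 lower (1 on dropping the mutant of litter 1). The replicate block (litter) gave 0 and 0 and changed no other call. None of the 9 forkhead genes was called under any alternative. Uncalled differences turned sign for Foxc1 (0.0077 after median-of-ratios scaling, 0.0053 after quantile scaling, and from -0.17 to 0.14 over the 6 fits that omit a library), for Foxf1 (-0.0095 to 0.14 over those fits) and for Foxf2 (-0.081 to 0.32, with -0.013 without the mutant of litter 2); the cause was not tested. Of 124 alternative values for the set, 118 kept sign and side. Within litters, Foxd2 and Foxf2 were lower in the Msx1-lower library on each scale tried, and Foxd1 and Foxp2 higher, joined by Foxp1 under median-of-ratios or quantile scaling. Of 108 alternative within-litter values, 98 moved by less than the SD of that gene's differences over the litters. The other 10 were all of Foxd2, whose differences in listed TPM were nearly equal between litters. The 4 genes without overlap stayed 4 under each scale, a comparison chosen after seeing the data. Foxc1 and Foxl1 fall under the stricter filter of a mean of 5 TPM and have no value there. Depth is unknown, and Foxl1, at a base mean of 33.9 in the authors' deposited table, had the largest standard error of the set.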

Other observations

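Among forkhead genes outside the arch mesenchyme set, 3 of the 11 with a mean of at least 5 TPM did not overlap by the order of Msx1, beside 9.32% of all genes tested, and none of them passed an adjusted threshold. Foxk1, a broadly expressed regulator of metabolism, was at 19.2, 21.2 and 17.9 TPM in the Msx1-lower libraries of litters 1, 2 and 3 and at 27.5, 26.4 and 24.0 TPM in their littermates, with no overlap. It was at -0.42 ± 0.14 in the authors' deposited table (unadjusted p = 0.00307, adjusted p = 0.893). Foxn2 was at 17.0, 17.5 and 15.5 TPM against 8.40, 12.6 and 15.04 TPM, higher in each litter but barely so in litter 3. Foxo4, of the insulin-responsive FoxO group, was at 8.01, 7.68 and 7.77 TPM against 9.28, 8.12 and 9.11 TPM.

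By the deposited labels, 3 of the 26 forkhead genes tested did not overlap between mutant and control, beside 13.1% of all genes tested. Foxj2 had 4.41, 5.02 and 4.58 TPM under the mutant label in litters 1, 2 and 3, and 10.70, 6.74 and 13.5 TPM under the control label. Mutant minus control was -0.95 ± 0.22 on the log2 scale (SE; adjusted p = 0.669 from limma). Foxm1, which drives genes of mitosis, was at 47.9, 51.3 and 41.8 TPM against 60.8, 55.5 and 60.7 TPM, at -0.33 ± 0.10 (SE; adjusted p = 0.686 from limma). Foxo3 had 24.2, 23.5 and 20.4 TPM against 27.9, 24.4 and 26.5 TPM, at -0.20 ± 0.10 (SE; adjusted p = 0.727 from limma). None of the 3 passed the threshold over all genes.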
